A study of Mus musculus with 16 samples.

Results

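Chemokine ligands are small secreted proteins that guide leukocytes into and through tissues. The genes described here are those on the array whose name is Ccl or Cxcl followed by a number. They made up 33 of the 34844 gene names on the array, 20 Ccl and 13 Cxcl genes, and were read by 45 probes. The rule that picked them used the names alone and no measured value, but it was set with earlier results of these data known. A gene was kept for testing when a probe was well above background, by the flag of the scanner software, on all 4 arrays of at least 1 group. Of the 33 genes, 25 were kept and 8 were not.

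The study exposed mice to an aggressor as a model of posttraumatic stress disorder and varied the length of the exposure. Each of 16 C57BL/6 hearts gave total RNA that was hybridised, labelled with cyanine 3, to its own one-colour Agilent array of 60-base probes. T1R1, T2R1 and T3R1 mice had 1, 2 and 3 days of exposure followed by 1 day of rest, with 4 hearts in each group. The 4 control mice sat in mesh boxes in a cage that held no aggressor. The labels place these controls in the 2-day arm, so T1R1 and T3R1 had no controls of their own duration. The treatment text of the labels, common to all groups, gives box exposure of 6 hours a day for 5 or 10 days, which is longer than the group names, and it describes repeated bites by the aggressor. The labels used here state neither age nor sex.

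Most chemokines signal through G protein-coupled receptors on leukocytes, and each receptor draws a different set of cells. CCR2 ligands recruit monocytes, CXCR2 ligands neutrophils, CXCR3 ligands activated T cells and CCR3 ligands eosinophils, whereas Cxcl12 and Cxcl13 are made steadily and position cells within tissues. In the heart, macrophages, fibroblasts and endothelial cells make the inflammatory ligands after injury or infection.

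The arrays lay on 2 slides with a scan each, control and T3R1 on 1 slide and T1R1 and T2R1 on the other. T3R1 against control and T2R1 against T1R1 are therefore comparisons within a slide, and in the other 4 comparisons slide and exposure cannot be told apart. Between 46.5 and 67.1% of the spots of an array were well above background, and no spot was saturated. Levels below are log2 signals relative to the 75th percentile of the array, so that 0 is the brightness at that percentile, which itself lay between 257 and 547 scanner units. The 6 cardiomyocyte markers were all measured, and their summed level was between 2840 and 6320 times that brightness. Control replicate 1 stood apart. It had the lowest of these cardiomyocyte sums, the highest 75th percentile and a mean correlation of 0.97 with the other controls, which correlated at 0.985 to 0.986 with their own group. It was the highest of the 4 controls for 18 of the 25 kept ligands and lay over 1 log2 unit above the mean of the other controls for 13. Results that rest on it are given with and without it. T1R1 replicate 1 stood apart for a smaller number of genes, given below. In whole hearts, more cells of a type and more RNA per cell cannot be told apart. Each p-value measures the spread between these hearts.

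Across the family, 0 of the 25 kept ligands passed an adjusted p under 0.05 (limma, moderated test over all 22762 features, Benjamini-Hochberg) in T1R1, T2R1 or T3R1 against control. At an unadjusted p under 0.05 there were 2, 4 and 8. The shares of all features that passed were 9.85% in T1R1, 18.4% in T2R1 and 0.694% in T3R1. T2R1 against T1R1 gave 0 ligands, 0 also at an unadjusted p under 0.05, against 0% of all features. T3R1 against T1R1 gave 3 ligands, Cxcl10 higher and Ccl11 and Ccl1 lower, where 22.9% of all features passed. T3R1 against T2R1 gave the same 3 in the same directions and Cxcl12 lower, 4 of 25, where 26.9% of all features passed. By direction, 7.65% of all features were higher and 15.2% lower in T3R1 than in T1R1, and 6.59% higher and 20.4% lower than in T2R1. The 3 and 4 called ligands are smaller shares of the 25 than these backgrounds. These comparisons share the T3R1 arrays, and those against control share the controls.

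The median log2 fold change of the 25 kept ligands against control was 0.18 in T1R1, 0.17 in T2R1 and 0.14 in T3R1, beside -0.01, 0.02 and -0.08 for all features. Some ligands lay far from these medians. Cxcl10 was at 2.94 and Ccl8 at 2.43 in T3R1 against control, whereas Ccl24 was at -0.82 and Ccl11 at -0.70. Groups were fully separated for few ligands with all arrays. Against control 1 was higher and 1 lower in T3R1 (3.2% and 4.39% of all features) and 1 higher and 2 lower in T2R1 (18.1% and 6.34%). T3R1 lay above T1R1 for 2 and below it for 3 (9.56% and 16.6%), and above T2R1 for 3 and below it for 3 (12.4% and 25.6%). T2R1 lay above T1R1 for 1, Ccl8 (5.07%). The map of all kept ligands shows that control replicate 1 lay within or above the range of the T3R1 hearts for Ccl2, Ccl7, Ccl12, Ccl8, Ccl3, Ccl4, Ccl5 and Ccl9 and below it for Cxcl10, and that exposed hearts of 1 group differed among themselves.

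**Figure D1:**
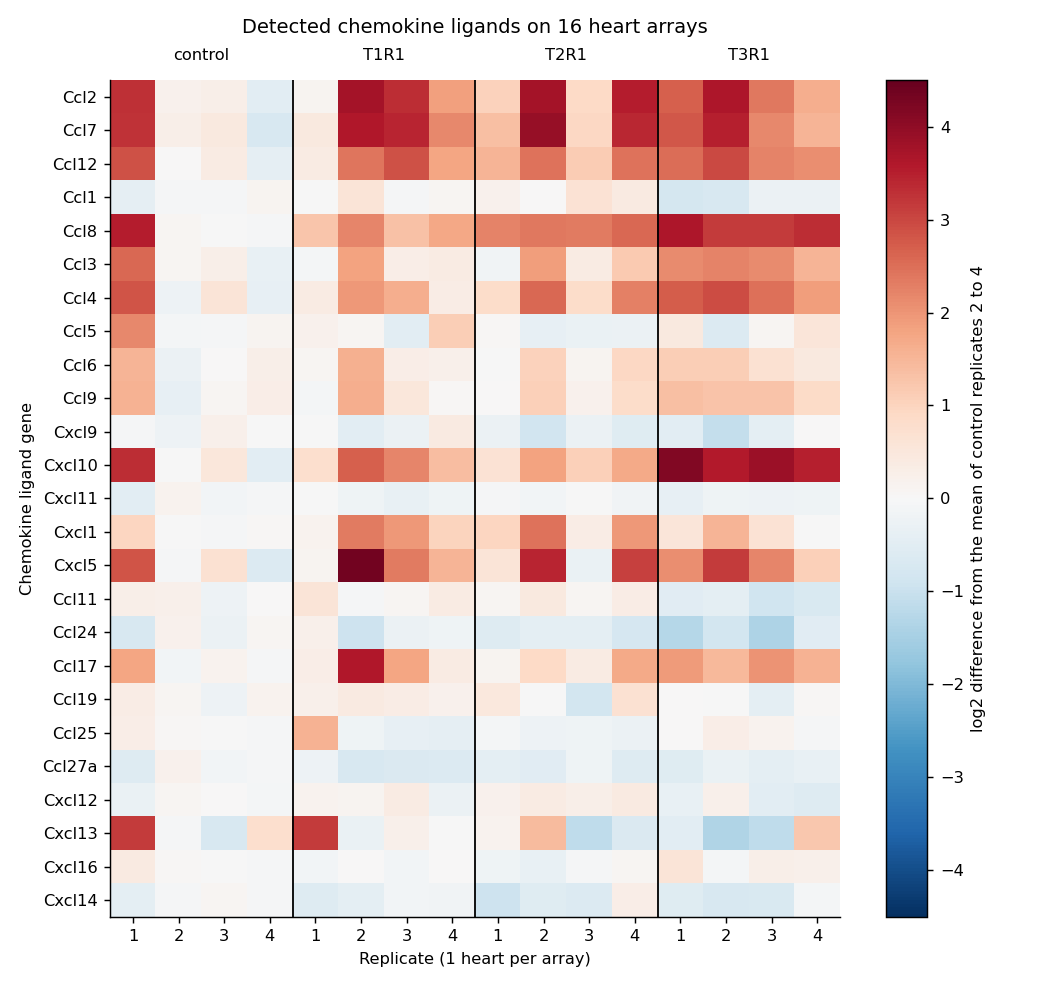
Log2 signal of the 25 kept chemokine ligands (rows) on the 16 arrays (columns, by group and replicate), each gene as the difference from its mean over control replicates 2 to 4. Ccl8 and Cxcl10 are red in all T3R1 hearts and in control replicate 1, and for Ccl2, Ccl7 and Cxcl5 T1R1 replicates 2 and 3 and T2R1 replicates 2 and 4 are redder than the other hearts of their groups.

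Leaving out control replicate 1 changed the comparison of T3R1 with control most. Then 11 of 25 ligands passed (limma), 8 higher and 3 lower, where 29.4% of all features passed, 10.2% higher and 19.2% lower. Higher calls were a larger share of the ligands than of all features, and lower calls a smaller one. Control replicate 1 was the highest control for 18 of the 25 ligands, so leaving it out lowers the control mean of those ligands. The larger share of higher calls is therefore no independent result about the family. Adjusted p-values of single ligands and counts of gene lists given below without this control likewise depend on leaving it out. In the same fit 4 of the 6 cardiomyocyte markers were lower in T3R1 (median of the list -0.49) and 2 of the 4 measured dendritic cell markers higher (median 1.28), where 0 of either had passed with all arrays (limma, 0 and 1 at an unadjusted p under 0.05). Their part in the ligand results was not tested. The 8 higher ligands were Cxcl10, Ccl8, Ccl2, Ccl4, Ccl7, Ccl12, Ccl3 and Ccl9, and the 3 lower were Ccl24, Ccl11 and Ccl27a. Their log2 fold changes ran from 1.19 for Ccl9 to 3.77 for Cxcl10 and from -1.0 for Ccl24 to -0.40 for Ccl27a. The median of the 25 was then 0.24 against -0.13 for all features. In T1R1 against control 4 ligands then passed, Ccl8, Cxcl10 and Ccl12 higher and Ccl27a lower, where 17.8% of all features passed, 8.18% higher and 9.65% lower. In T2R1 against control 5 passed, the same 4 in the same directions and Ccl4 higher, where 24.4% passed, 15% higher and 9.37% lower. The 4 to 5 calls are thus near the backgrounds. All arrays of the exposed group lay above control replicates 2 to 4 for 5 ligands in T1R1, 8 in T2R1 and 11 in T3R1 (13%, 24% and 14.4% of all features), and below them for 2, 4 and 6 (17.8%, 20.8% and 26.2%). T3R1 against T1R1 rose from 3 ligands to 7, where 31.3% of all features passed, and T3R1 against T2R1 from 4 to 6, where 36.6% passed. Leaving out T3R1 replicate 1 took the ligands that passed in T3R1 against T1R1 to 1, Ccl11, where 15.4% of all features passed. Without T1R1 replicate 1, T1R1 against control gave 2 ligands lower, Ccl25 at -0.38 and Ccl27a at -0.53 (9.91% of all features), and T3R1 against control gave 1, Ccl11 (0.769%). Without T1R1 replicate 2, T3R1 against control gave 2, Cxcl10 and Ccl11 (1.12%), and without T2R1 replicate 4, T2R1 against control gave 1 (12.4%).

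**Figure D2:**
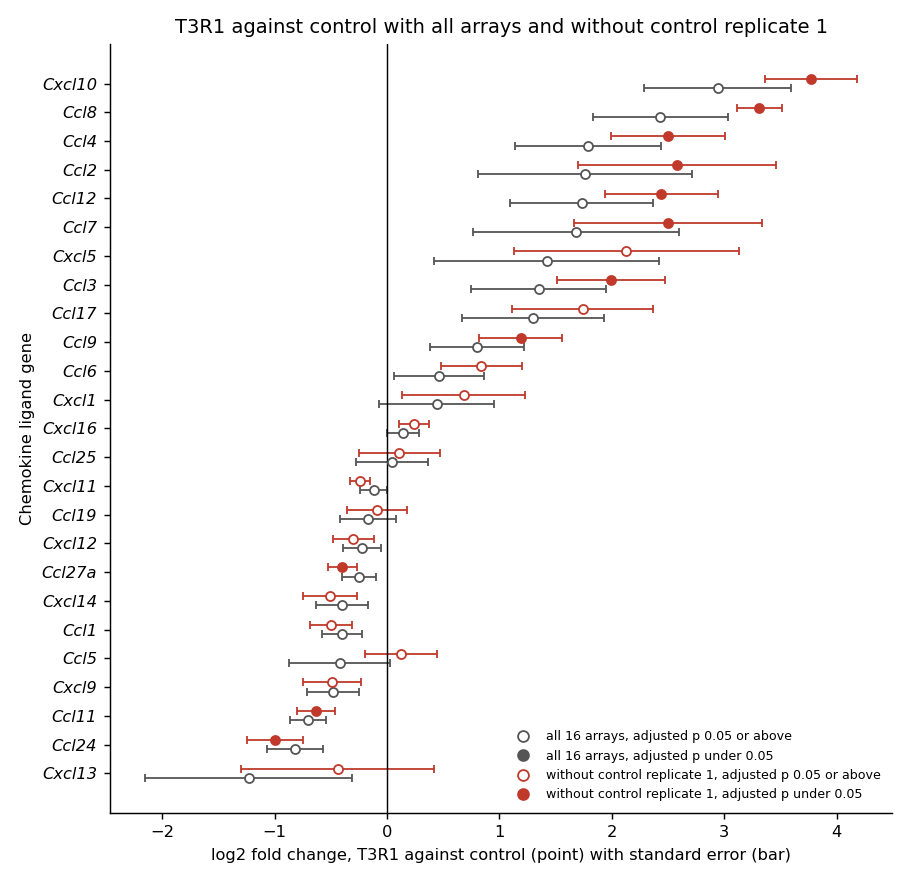
Log2 fold change of each kept ligand in T3R1 against control with its standard error, with all 16 arrays (grey) and without control replicate 1 (red), filled where the adjusted p was under 0.05. With all arrays no point is filled and Cxcl10 lies at 2.94, and without control replicate 1 there are 11 filled points from Cxcl10 at 3.77 to Ccl24 at -1.0.

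Cxcl10 had the largest difference from control of the 25 ligands in T3R1. It is an interferon-induced ligand of CXCR3, the receptor of activated T cells. Its level was 0.74, -2.60, -2.10 and -3.08 in control replicates 1 to 4, and 1.56, 0.96, 1.25 and 0.92 in T3R1. T1R1 hearts were at -1.82, 0.09, -0.41 and -1.19, and T2R1 hearts at -1.96, -0.78, -1.52 and -0.88. All 4 T3R1 hearts lay above all 12 others. Control replicate 1 came next, and the other controls were the lowest of all. T3R1 was 7.65-fold above control (2.94 ± 0.65, SE, n = 4, limma adjusted p = 0.054), and 13.6-fold above control replicates 2 to 4 (3.77 ± 0.41, adjusted p = 9.11e-05). It was the 1 ligand whose T3R1 arrays all lay above all controls. With all controls, the call was made after normexp background correction (2.01, adjusted p = 0.0324) and on the authors' deposited values (2.26, adjusted p = 0.039). Of 31 alternative settings, 22 left T3R1 against control short of the threshold and 9 did not.

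Cxcl10 was 4.02-fold higher in T3R1 than in T1R1 (2.01 ± 0.65, limma adjusted p = 0.04) and 5.50-fold higher than in T2R1 (2.46 ± 0.65, adjusted p = 0.0129). The call against T2R1 held without each array in turn. The call against T1R1 was lost without T1R1 replicate 1, 3 or 4, without T2R1 replicate 3 and without each T3R1 array, with values from 1.68 to 2.15 and adjusted p from 0.0502 to 0.109. A second Cxcl10 probe was not well above background on any array.

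The Cxcl10 promoter is shown because the gene differed most. The 250 bases before the RefSeq start site (GRCm38.p6, chr5:92348890-92349139, minus strand) hold 1 match to the spaced repeat of interferon response elements, GAAA, any 2 bases and GAAA again, in capitals.

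Cxcl10: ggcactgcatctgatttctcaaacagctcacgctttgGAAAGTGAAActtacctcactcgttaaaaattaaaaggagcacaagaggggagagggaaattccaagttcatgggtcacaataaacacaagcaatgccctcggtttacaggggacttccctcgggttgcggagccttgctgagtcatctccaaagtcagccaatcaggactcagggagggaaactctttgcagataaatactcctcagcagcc

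RefSeq promoters were at hand for 22 of the 33 ligands, 25 promoters in all. Both strands were searched over the 250 bases before the start. The spaced GAAA repeat was in 3 of the 25 (12%) and in 2.98% of all 32851 promoters of that length. The other 2 with a match were Ccl19 and Cxcl14, which did not pass in T3R1 against control with or without control replicate 1. Of the interferon-response list of 14 genes, all measured, 1 was higher and 2 were lower in T3R1 against control, Isg15 at 0.91 ± 0.17 (limma adjusted p = 0.0313), Gbp4 at -1.41 ± 0.17 and Irf1 at -0.35 ± 0.07. Without control replicate 1 it was 5 higher and 2 lower of the 14 (10.2% and 19.2% of all features). Against T1R1 3 were higher and 2 lower in T3R1, and against T2R1 4 were higher and 1 lower. In T2R1 against control 4 were lower and none higher, and in T1R1 0 passed. Isg15, Gbp4 and Irf1 are all known as interferon-induced genes.

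Cxcl9 and Cxcl11, the other CXCR3 ligands, did not follow Cxcl10. Cxcl9, which interferon gamma induces, was at -0.48 ± 0.23 in T3R1 against control (limma adjusted p = 0.236), with T3R1 hearts at -1.29, -1.88, -1.24 and -0.78 and control hearts at -0.87, -1.02, -0.56 and -0.82. T1R1 hearts were at -0.83, -1.29, -1.08 and -0.38, and these 3 groups overlapped. In T2R1 its 4 hearts, at -1.08, -1.66, -1.07 and -1.36, lay below all controls without passing (-0.47 ± 0.23, adjusted p = 0.177). Its second probe passed in that comparison when each probe was tested on its own (-0.81 ± 0.20, adjusted p = 0.0132). That comparison is between slides.

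Cxcl11 is annotated in RefSeq as a transcribed pseudogene. Its brighter probe read 7.59, 8.24, 7.95 and 8.01 in control, 8.06, 7.86, 7.75 and 7.89 in T1R1, 8.01, 7.95, 8.06 and 7.92 in T2R1 and 7.71, 7.86, 7.84 and 7.88 in T3R1. It varied little, and its fold change in T3R1 against control was -0.12 ± 0.12 (limma adjusted p = 0.538). That probe shares a run of at least 20 bases with 7 other probes on the array, of 7 other gene names. Bases 10 to 39 of the probe are printed because they hold the run shared by 6 of them, in capitals.

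Cxcl11 probe: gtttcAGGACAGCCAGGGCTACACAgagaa

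How much of its signal comes from other transcripts was not tested, and its level is uncertain. The second Cxcl11 probe, which shares no such run, was dimmer, from 1.22 in T3R1 replicate 1 to 2.03 in control replicate 2. This second probe was at -0.33 ± 0.14 in T3R1 against control (adjusted p over probes = 0.187). It passed as lower in T3R1 against T1R1 (-0.4 ± 0.14, adjusted p over probes = 0.0497), a comparison between slides. Against T2R1 it did not pass (-0.26 ± 0.14, adjusted p over probes = 0.174).

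Ccl8 was lowest in T1R1, higher in T2R1 and highest in T3R1 among the 12 exposed hearts. It is a monocyte chemoattractant that signals through CCR8 in mice. T1R1 hearts were at 0.68, 1.63, 0.77 and 1.19, T2R1 hearts at 1.66, 1.82, 1.77 and 2.03, and T3R1 hearts at 3.06, 2.58, 2.59 and 2.77. The 3 groups did not overlap. T2R1 lay above T1R1 in this way for 5.07% of all features, and T3R1 above T2R1 for 12.4%. T3R1 was on another slide than T1R1 and T2R1, so in the step to T3R1 slide and exposure cannot be told apart. Control replicates 2 to 4 were at -0.47, -0.59 and -0.63, below every exposed heart, but control replicate 1 was at 2.97, within T3R1.

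With all controls none of the Ccl8 comparisons passed over the 22762 features. T3R1 was 5.38-fold above control (2.43 ± 0.60, limma adjusted p = 0.0614), 3.21-fold above T1R1 (1.68 ± 0.60, adjusted p = 0.0568) and 1.91-fold above T2R1 (0.93 ± 0.60, adjusted p = 0.267). T2R1 against T1R1 was 0.75 ± 0.60 (adjusted p = 0.749). The SE pools the spread of all 4 groups, control replicate 1 included. In the fit without that array T2R1 against T1R1 was 0.75 ± 0.18 (limma adjusted p = 0.225). T3R1 then passed against T1R1 (1.68 ± 0.18, adjusted p = 3.46e-05) and T2R1 (0.93 ± 0.18, adjusted p = 0.00159), both between slides. Against control replicates 2 to 4, Ccl8 was higher by 1.63 ± 0.20 in T1R1, 2.38 ± 0.20 in T2R1 and 3.31 ± 0.20 in T3R1, with limma adjusted p of 0.00166, 0.000178 and 2.94e-06. Leaving out the high control lowered both the control mean, from 0.32 to -0.56, and the SE, so these p-values depend on that exclusion. With all controls, T3R1 against control passed over only the 17956 features well above background on every array (2.43, limma adjusted p = 0.0435, 3.01% passing). It also passed with array weights (3.23, limma adjusted p = 3.17e-05), where 34.5% of all features passed, against 0.694% without weights. In 26 of 31 alternative settings this comparison did not pass. In fits of only the groups compared, T3R1 was above T1R1 (adjusted p = 0.0022) and T2R1 (adjusted p = 0.00138), both between slides.

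Ccl4 and Ccl3, the macrophage inflammatory proteins that draw macrophages and T cells, also had their highest means in T3R1. Ccl4 was at -0.38, -3.44, -2.63 and -3.59 in control and at -0.49, -0.29, -0.73 and -1.35 in T3R1. T1R1 was at -2.86, -1.28, -1.60 and -2.89, and T2R1 at -2.40, -0.62, -2.40 and -0.97. Ccl3 was at -1.47, -3.98, -3.80 and -4.41 in control and at -1.95, -1.83, -1.95 and -2.55 in T3R1. T1R1 was at -4.16, -2.24, -3.78 and -3.70, and T2R1 at -4.21, -2.18, -3.70 and -2.88. For both genes all T3R1 hearts lay above control replicates 2 to 4 and below control replicate 1, except T3R1 replicate 2 for Ccl4. In T3R1 against control Ccl4 was at 1.79 ± 0.65 (limma adjusted p = 0.132) and Ccl3 at 1.35 ± 0.60 (adjusted p = 0.204). Without that control they were at 2.50 ± 0.51 (adjusted p = 0.00356) and 1.99 ± 0.48 (adjusted p = 0.00808). Ccl3 was well above background on 13 of 16 arrays.

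**Figure D3:**
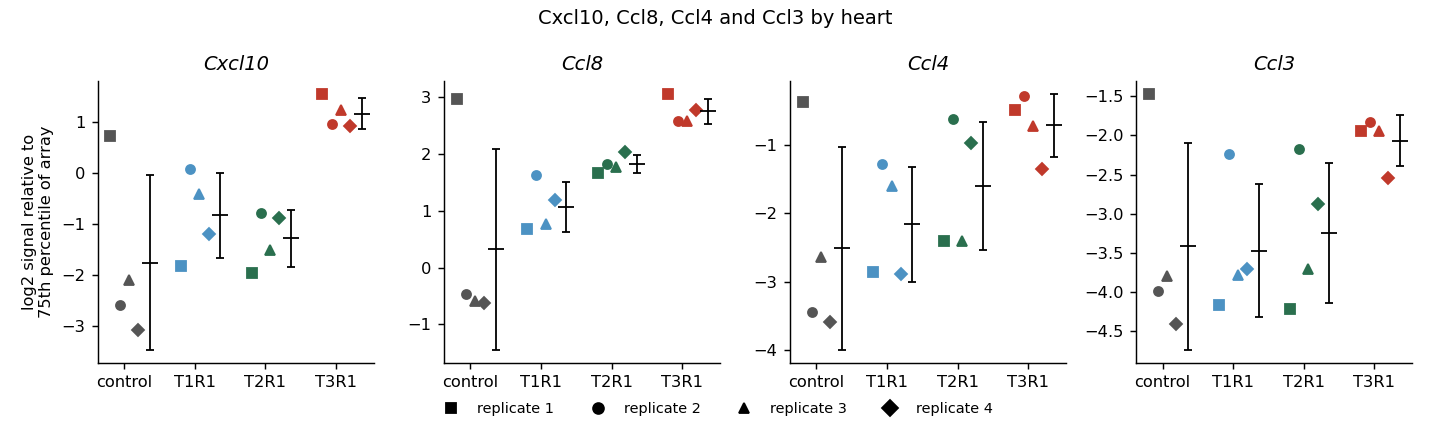
Log2 signal relative to the 75th percentile of the array for Cxcl10, Ccl8, Ccl4 and Ccl3 in each heart (marker shape gives the replicate), with the group mean and SD (bar). The T3R1 hearts of Cxcl10, from 0.92 to 1.56, lie above all others, and for Ccl8 control replicate 1 at 2.97 lies among the T3R1 hearts while the other controls are the lowest.

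Ccl5, a product of T cells and natural killer cells, differed from Ccl3 and Ccl4. It was at 1.82, -0.40, -0.39 and -0.19 in control, -0.15, -0.23, -0.79 and 0.79 in T1R1, -0.28, -0.70, -0.62 and -0.58 in T2R1 and 0.11, -0.95, -0.23 and 0.23 in T3R1. Control replicate 1 was far above the other 15 hearts. T3R1 against control was -0.42 ± 0.45 (limma adjusted p = 0.603) and 0.12 ± 0.32 without that control. Ccl6 and Ccl9, CCR1 ligands made by macrophages, lay between. Ccl9 was at 1.88, 3.60, 2.46 and 2.01 in T1R1 and at 1.97, 3.03, 2.13 and 2.79 in T2R1. It was at 3.51, 1.57, 2.04 and 2.25 in control and at 3.32, 3.22, 3.24 and 2.81 in T3R1, a difference of 0.80 ± 0.42 (adjusted p = 0.267) that passed without control replicate 1 (1.19 ± 0.37, adjusted p = 0.0273). Ccl6 was at 4.72, 2.93, 3.22 and 3.47 in control, 3.30, 4.80, 3.5 and 3.45 in T1R1, 3.18, 4.24, 3.32 and 4.15 in T2R1 and 4.33, 4.31, 3.89 and 3.65 in T3R1. T1R1 replicate 2 and T2R1 replicates 2 and 4 were high for both genes. Its difference was 0.46 ± 0.40, or 0.84 ± 0.36 without that control, and neither passed.

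The macrophage marker list was measured beside these ligands. All 10 genes on it were measured, and their summed level was 77.4 to 84.7 times the 75th percentile in control replicates 2 to 4, 127 in control replicate 1, 85.0 to 105 in T1R1, 88.9 to 104 in T2R1 and 112 to 133 in T3R1. With all arrays 0 of the 10 passed in T3R1 against control (limma, 6 at an unadjusted p under 0.05). Without control replicate 1, 7 were higher (10.2% of all features), among them Cd68 at 1.89 and Adgre1 at 1.13. Against T1R1 and T2R1 6 and 5 were higher in T3R1, and Itgam was lower in both. In T1R1 and T2R1 against control 1 of the 10 was higher, Itgam at 0.47 in each. Of the 6 lung epithelium markers listed, 2 were measured, and their sum was 43.7 in control replicate 1 and 49.8 in T3R1 replicate 1 and between 0.245 and 0.677 elsewhere. The part of either list in the ligand results was not tested.

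The ligands of CCR2 are Ccl2, Ccl7 and Ccl12, which call monocytes out of the blood. They lie close together on chromosome 11 (mm9), Ccl2 with its probe at chr11:81850650-81850709, Ccl7 at chr11:81860656-81860715 and Ccl12 at chr11:81916764-81916823. The probe of Ccl11, which is not a member of this set, lies between those of Ccl7 and Ccl12. Ccl2 was at 3.48, 0.40, 0.45 and -0.28 in control, 0.33, 3.92, 3.52 and 2.05 in T1R1, 1.22, 3.94, 1.10 and 3.71 in T2R1 and 2.87, 3.83, 2.57 and 1.82 in T3R1. Hearts of 1 group differed by over 2 log2 units in every group. All T2R1 and T3R1 hearts lay above control replicates 2 to 4, as did 3 of the 4 T1R1 hearts. Ccl2 had 10 spots on each array, with an SD between spots of 0.0415 to 0.133. Spots of 1 array share their RNA and hybridisation, so this is the precision of reading 1 array. The SD over the 16 hearts was 1.49.

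Ccl7 was at 2.72, -0.28, -0.09 and -1.24 in control, -0.09, 3.08, 2.89 and 1.62 in T1R1, 0.81, 3.38, 0.39 and 2.87 in T2R1 and 2.26, 2.95, 1.64 and 1.00 in T3R1. Ccl12 was at 2.33, -0.51, -0.15 and -0.92 in control, -0.15, 1.87, 2.35 and 1.24 in T1R1, 1.00, 1.90, 0.61 and 1.91 in T2R1 and 1.97, 2.43, 1.71 and 1.56 in T3R1. The same hearts were high for all 3 genes. They were control replicate 1, T1R1 replicates 2 and 3, T2R1 replicates 2 and 4 and, in T3R1, replicates 2 and 1.

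In T3R1 against control Ccl2 was at 1.76 ± 0.95 (limma adjusted p = 0.285), Ccl7 at 1.68 ± 0.92 (adjusted p = 0.288) and Ccl12 at 1.73 ± 0.64 (adjusted p = 0.14). Against control replicates 2 to 4 the values were 2.58 ± 0.88 (adjusted p = 0.042), 2.50 ± 0.84 (adjusted p = 0.0395) and 2.44 ± 0.50 (adjusted p = 0.00344). T2R1 against T1R1, within a slide, was 0.04 ± 0.95 for Ccl2, -0.01 ± 0.92 for Ccl7 and 0.02 ± 0.64 for Ccl12. The spread within these groups leaves room for differences of well over 1 log2 unit either way.

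Cxcl1 and Cxcl5 bind CXCR2 on neutrophils and lie on chromosome 5. Cxcl1 was at -1.69, -2.69, -2.71 and -2.62 in control, -2.50, -0.35, -0.73 and -1.67 in T1R1, -1.70, -0.22, -2.33 and -0.71 in T2R1 and -2.12, -1.15, -2.02 and -2.68 in T3R1. Cxcl5 was at -0.56, -3.44, -2.73 and -4.03 in control, -3.26, 0.94, -1.05 and -1.88 in T1R1, -2.81, 0.03, -3.70 and -0.34 in T2R1 and -1.31, -0.25, -1.20 and -2.33 in T3R1. The high hearts of T1R1 and T2R1 were those that were high for Ccl2, Ccl7 and Ccl12.

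Neither passed in any comparison with all arrays. Against control Cxcl1 was at 1.11 ± 0.51 in T1R1 (limma adjusted p = 0.187), 1.19 ± 0.51 in T2R1 (adjusted p = 0.13) and 0.44 ± 0.51 in T3R1 (adjusted p = 0.639). Cxcl5 was at 1.38 ± 1.00, 0.98 ± 1.00 and 1.42 ± 1.00, with adjusted p between 0.411 and 0.553. With control replicate 1 and T1R1 replicate 1 both left out, a fit added after seeing the data, Cxcl1 passed in T1R1 (1.76, adjusted p = 0.0322, 22% of all features passing) and T2R1 (1.43, adjusted p = 0.0476, 25.9% passing). Of the neutrophil list of 12 genes, 8 were measured, and 5 were higher in T2R1 against control, a comparison between slides. They ran from Ly6g at 0.46 ± 0.11 (limma adjusted p = 0.0127) to Retnlg at 2.91 ± 0.81 (adjusted p = 0.0229). The 8 measured genes summed to 63.9, 79.1, 46.5 and 44.6 in T2R1 replicates 1 to 4, and to between 36.3 and 45.1 in control. Cxcl1 and Cxcl5 were highest in T2R1 replicates 2 and 4.

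**Figure D4:**
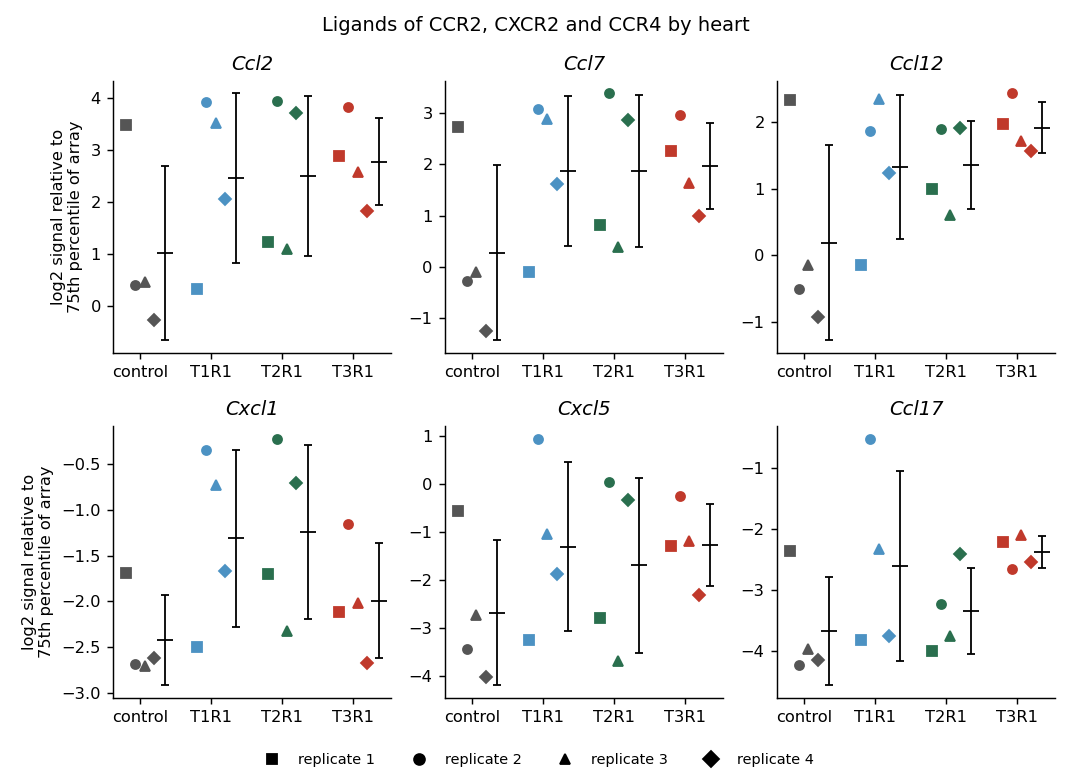
Log2 signal relative to the 75th percentile of the array for Ccl2, Ccl7, Ccl12, Cxcl1, Cxcl5 and Ccl17 in each heart (marker shape gives the replicate), with the group mean and SD (bar). In the Ccl2, Ccl7, Ccl12, Cxcl1 and Cxcl5 panels T2R1 replicates 2 and 4 lie above replicates 1 and 3, and T1R1 replicate 1 is the lowest of its group.

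Cxcl2 and Cxcl3, the close relatives of Cxcl1 near it on chromosome 5, were well above background on 1 of 16 arrays each, a T1R1 heart. The promoters of the 3 genes are compared because they share the letters GGGAATTTCC, a form of the kappaB motif to which NF-kappaB binds, while 1 was measured in every heart and the others were not. Each line below gives the plus strand of GRCm38.p6 with those letters in capitals, at chr5:90891164-90891193 for Cxcl1, chr5:90903792-90903821 for Cxcl2 and chr5:90786018-90786047 for Cxcl3.

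Cxcl1: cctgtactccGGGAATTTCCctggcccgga

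Cxcl2: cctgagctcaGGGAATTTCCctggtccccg

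Cxcl3: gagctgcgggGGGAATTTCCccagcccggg

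The motif searched, GGG, any 2 bases and TTTCC on either strand, was in 5 of the 25 ligand promoters (20%), the other 2 being Ccl20 and Ccl9, and in 1.41% of all 32851. Cxcl1 and Cxcl2 had 2 matches each. TATAAA, the core of the TATA box, was in 8 of 25 (32%) and in 12.4% of all. Of the 17 NF-kappaB and inflammatory cytokine genes listed, 13 were measured, 0 passed in T1R1 or T3R1 against control (limma, 1 and 2 at an unadjusted p under 0.05) and Nfkb1 was lower in T2R1 (-0.38 ± 0.10, adjusted p = 0.0152). Without control replicate 1, 3 of the 13 were higher in T3R1 (10.2% of all features), Il6, Tnf and the adhesion molecule Vcam1 (0.39). In that fit Il6 and Tnf also passed as higher in T2R1, and Tnf in T1R1. Il6 was well above background on 1 and Tnf on 2 of the 4 control arrays, so no fold is given for them.

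Over all 25 kept ligands, T1R1 replicates 2 and 3 were the 2 highest hearts of their group for 11, and T2R1 replicates 2 and 4 for 15. In T3R1 no pair was the highest for more than 7, which was replicates 1 and 2. T1R1 replicate 1 was the lowest of its group for 13 ligands and T2R1 replicate 1 for 9.

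Ccl11 and Ccl24, the eotaxins, bind CCR3 on eosinophils and had their lowest means in T3R1. Ccl11 was at -0.86, -0.90, -1.35 and -1.12 in control, -0.55, -1.16, -1.05 and -0.77 in T1R1, -1.05, -0.68, -1.05 and -0.78 in T2R1 and -1.64, -1.55, -2.03 and -1.80 in T3R1. All 4 T3R1 hearts lay below the 12 others. Ccl11 fell by 0.88 ± 0.16 in T3R1 against T1R1 (limma adjusted p = 0.00158) and by 0.87 ± 0.16 against T2R1 (adjusted p = 0.00123), 1.84 and 1.82-fold. Against control, on the same slide, the difference was -0.70 ± 0.16 (adjusted p = 0.0552). Against control replicates 2 to 4 it was -0.63 ± 0.17 and passed (adjusted p = 0.013), and control replicate 1 was not apart for this gene. With all controls it passed after normexp correction (-0.54, adjusted p = 0.0334), over the features well above background on every array (adjusted p = 0.0374), with an intensity trend (adjusted p = 0.0423) and with array weights (-0.59, adjusted p = 0.00682). Ccl11 did not pass against control in 22 of the 31 alternative settings. The calls against T1R1 and T2R1 were lost when arrays were scaled to their median, with values of -0.47 (adjusted p = 0.0919) and -0.51 (adjusted p = 0.0757). That scaling moved the median of all features from -0.07 to 0.33 and from -0.09 to 0.26, so relative to it Ccl11 was still lower.

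Ccl24 was at -0.79, 0.12, -0.32 and 0.01 in control, 0.16, -0.98, -0.33 and -0.24 in T1R1, -0.65, -0.51, -0.52 and -0.82 in T2R1 and -1.33, -0.90, -1.44 and -0.59 in T3R1. Groups overlapped, with control replicate 1 among the exposed hearts. T3R1 against control was -0.82 ± 0.25 (limma adjusted p = 0.0935), and -1.0 ± 0.25 without that control (adjusted p = 0.00911). Ccl26, the remaining eotaxin, was not well above background on any array.

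Ccl1, a T cell product that binds CCR8, was read near background by a probe for an Ensembl transcript. It was flagged well above background on 14 of 16 arrays, and the RefSeq probe of the gene on none. Levels were -4.32, -3.97, -3.97 and -3.76 in control, -3.93, -3.32, -3.96 and -3.81 in T1R1, -3.69, -3.87, -3.25 and -3.49 in T2R1 and -4.68, -4.61, -4.17 and -4.15 in T3R1. T3R1 was lower than T1R1 (-0.65 ± 0.18, limma adjusted p = 0.0213) and T2R1 (-0.83 ± 0.18, adjusted p = 0.00466), and its hearts lay below all of theirs. Both calls were lost after normexp correction (-0.37 and -0.39), quantile scaling (-0.20 and -0.46), median scaling (-0.24 and -0.47) and on the authors' values (-0.04 and -0.13). The first was also lost without T1R1 replicate 2 (-0.50), T3R1 replicate 1 (-0.55) or T3R1 replicate 2 (-0.58). The decrease thus depends on the background correction and the scaling. Of the 10 T cell markers listed, 9 were measured, and 3 were lower in T3R1 than in T1R1 and 5 lower than in T2R1, while 2 and 4 were higher in T1R1 and T2R1 against control (limma). Their part in the level of Ccl1 was not tested.

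**Figure D5:**
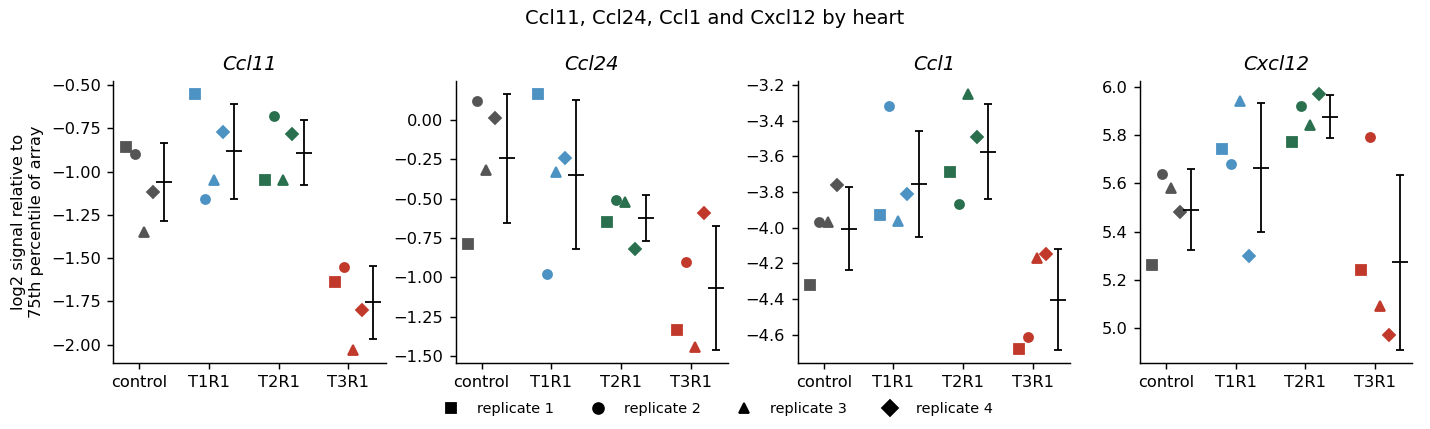
Log2 signal relative to the 75th percentile of the array for Ccl11, Ccl24, Ccl1 and Cxcl12 in each heart (marker shape gives the replicate), with the group mean and SD (bar). Ccl11 is lowest in the 4 T3R1 hearts, from -2.03 to -1.55, and 3 of the 4 T3R1 hearts are the lowest of all for Cxcl12.

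Cxcl12, the CXCR4 ligand that holds stem and progenitor cells and guides vessel growth, was at 5.26, 5.64, 5.58 and 5.48 in control, 5.74, 5.68, 5.94 and 5.30 in T1R1, 5.77, 5.92, 5.84 and 5.97 in T2R1 and 5.24, 5.79, 5.09 and 4.97 in T3R1. All T2R1 hearts lay above all controls (0.38 ± 0.17, limma adjusted p = 0.134). This held for no other ligand, and for 18.1% of all features, in a comparison between slides. A second probe, for another transcript of the gene, was at 0.10 ± 0.22 there (adjusted p over probes = 0.817), and its groups overlapped. T3R1 replicate 2 was within T2R1 and the other T3R1 hearts below. Cxcl12 fell by 0.60 ± 0.17 in T3R1 against T2R1 (limma adjusted p = 0.0164). In that comparison the second probe was at a value of the opposite sign (0.19 ± 0.22, adjusted p over probes = 0.547). With the mean of both probes the value was -0.20 (adjusted p = 0.331), and with median scaling -0.25 (adjusted p = 0.37), and the call was lost in both.

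Ccl17, a CCR4 ligand made by dendritic cells, was at -2.36, -4.23, -3.98 and -4.16 in control and at -2.22, -2.66, -2.10 and -2.55 in T3R1. T1R1 was at -3.82, -0.52, -2.34 and -3.76, and T2R1 at -4.01, -3.23, -3.76 and -2.41. T1R1 replicate 2 was the highest heart of all. T3R1 against control was 1.30 ± 0.63 (limma adjusted p = 0.24), or 1.74 ± 0.63 without control replicate 1 (adjusted p = 0.0545), where the groups no longer overlapped. Ccl22, the other CCR4 ligand, was not well above background on any array.

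Ccl25 and Cxcl13 were high in T1R1 replicate 1. Ccl25, a thymus and gut ligand of CCR9, was at 0.99 there and between -0.98 and -0.28 in the 15 other hearts. Without that heart Ccl25 passed at its brightest probe in T1R1 against control (-0.38 ± 0.11, limma adjusted p = 0.0389) and in T3R1 against T1R1 (0.42 ± 0.11, adjusted p = 0.0156), both between slides. A second probe, well above background on 11 arrays, had values of the opposite sign with all arrays. They were 0.28 ± 0.24 (adjusted p over probes = 0.505) and -0.7 ± 0.24 (adjusted p over probes = 0.0506). That probe passed as lower in T3R1 against T2R1 (-1.0 ± 0.24, adjusted p over probes = 0.00762), also between slides. The brightest probe was at 0.31 ± 0.32 there with all arrays. Cxcl13, which draws B cells to follicles through CXCR5, was at 2.02, -1.21, -1.85 and -0.37 in control, 1.99, -1.43, -0.92 and -1.15 in T1R1, -1.0, 0.27, -2.28 and -1.80 in T2R1 and -1.62, -2.49, -2.29 and 0.07 in T3R1. That heart and control replicate 1 were far above the others. Only 2 of the 9 thymus markers listed were measured, and their sum was 3.05 in T1R1 replicate 1 and between 0.212 and 0.594 elsewhere. The sum of the 9 measured T cell markers was 13.7 in that heart and between 4.92 and 9.10 elsewhere. The 8 measured B cell and lymph node markers summed to 9.30 in that heart, 9.71 in control replicate 1 and 1.55 to 4.32 elsewhere. Ccr9, the Ccl25 receptor, was at -0.52 in that heart and between -3.67 and -1.81 in the others. Their part in the levels of Ccl25 and Cxcl13 was not tested.

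Of the other constitutive ligands, Ccl27a, a CCR10 ligand of skin, was at 1.34, 2.10, 1.79 and 1.87 in control and between 1.20 and 1.72 in the 12 exposed hearts. At its brightest probe it was lower in all 3 exposed groups when control replicate 1, its lowest control, was left out, with values of -0.56 ± 0.13 in T1R1, -0.43 ± 0.13 in T2R1 and -0.40 ± 0.13 in T3R1 (limma adjusted p = 0.0135, 0.029 and 0.0324). That probe was at -0.42, -0.29 and -0.25 with all controls, and 0 of its 3 probes passed. A second probe overlaps the brightest in position, and the third was at -0.13, -0.0 and -0.04 with all controls. Ccl19, which binds CCR7 on lymphocytes and dendritic cells, did not pass at its brightest probe (-0.38 ± 0.25 in T3R1 against T1R1, adjusted p = 0.292), but its other 2 probes were lower in T3R1 than in T1R1 (-0.45 and -0.63) and T2R1 (-0.44 and -0.69), with adjusted p over probes from 0.00323 to 0.0125. The mouse genome holds near-identical copies of Ccl19 and Ccl27a, which these probes may not tell apart. Cxcl14, which several tissues make at rest, and Cxcl16 did not pass in any comparison with all arrays. Cxcl14 was at 2.03, 2.41, 2.55 and 2.41 in control and at 1.91, 1.74, 1.77 and 2.37 in T3R1, a difference of -0.40 ± 0.23 with overlap. Cxcl16, the membrane-bound ligand of CXCR6, was at 0.34, 0.00, -0.06 and -0.10 in control, -0.24, -0.38, -0.10 and 0.04 in T2R1 and 0.51, -0.15, 0.22 and 0.18 in T3R1. It differed by 0.36 ± 0.14 in T3R1 against T2R1 (adjusted p = 0.0686).

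The 8 ligands that were not kept were Ccl20, Ccl22, Ccl26, Ccl28, Cxcl2, Cxcl3, Cxcl15 and Cxcl17. Ccl20, Ccl22, Ccl26, Ccl28 and Cxcl15 were well above background on no array, which sets only an upper bound on their level, and Cxcl17 on 5 of 16. All 12 ligands on chromosome 11 were kept, from Cxcl16 to Ccl4, and 7 of the 11 on chromosome 5.

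Of the 18 chemokine receptors listed, 11 were measured. Ccr1, Ccr4, Ccr6, Cxcr1, Cxcr2, Cxcr5 and Xcr1 were not. With all arrays 0 passed in T3R1 against control (limma, 3 at an unadjusted p under 0.05). Without control replicate 1 there were 4, all higher (10.2% of all features), among them Ccr2 at 2.60 and Cx3cr1 at 1.93. The summed receptor level was 10.9 in control replicate 1 and 2.25 to 2.89 in the other controls. Ccr2, the monocyte receptor of Ccl2, Ccl7 and Ccl12, was at 1.05, -2.97, -2.83 and -2.26 in control and at 0.08, -0.56, 0.30 and -0.17 in T3R1. In T1R1 it was at 0.34 in replicate 2 and from -2.63 to -2.16 in the others. In T2R1 it was at -2.46, -1.95, -2.26 and -1.34. The hearts with the highest Ccr2 in T1R1, replicates 2 and 3, and in T2R1, replicates 4 and 2, were those with the highest Ccl2, Ccl7 and Ccl12. T1R1 replicate 3, at -2.16, lay close to the lower hearts of its group. Cx3cr1 was higher in T3R1 than in both T1R1 (1.82 ± 0.52, adjusted p = 0.021) and T2R1 (1.95 ± 0.52, adjusted p = 0.0127).

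Ccr8, the receptor of Ccl8 and Ccl1, was the only receptor to pass against control with all arrays, at 1.12 ± 0.30 in T1R1 (limma adjusted p = 0.0277) and 1.58 ± 0.30 in T2R1 (adjusted p = 0.00244), both between slides. In T3R1, on the slide of the controls, it was at 0.35 ± 0.30 (adjusted p = 0.494). Ccr7 and Ccr9 were lower in T3R1 than in T1R1 and T2R1, and Ccr8 was lower than in T2R1 (-1.23 ± 0.30, limma adjusted p = 0.00739). Of the 11 receptors, 1 was higher and 2 lower in T3R1 than in T1R1 (22.9% of all features passing). Against T2R1, 2 were higher and 3 lower (26.9%), and both comparisons are between slides.

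Of the 5 atypical receptors, most of which bind chemokines without directing migration, 0 passed in any group against control (limma, 1 in T1R1, 1 in T2R1 and 2 in T3R1 at an unadjusted p under 0.05), and Ccrl2 was lower in T3R1 than in T1R1 (-0.58 ± 0.19, adjusted p = 0.0398) and T2R1 (-0.81 ± 0.19, adjusted p = 0.00617). Of the chemokines with another form of name, Cx3cl1, the ligand of Cx3cr1, was higher in T3R1 than in T1R1 (0.74 ± 0.21, adjusted p = 0.0204) and T2R1 (0.66 ± 0.21, adjusted p = 0.0316). Against control it was at 0.78 ± 0.21 (adjusted p = 0.0708), and it passed without control replicate 1 at 0.99. The platelet chemokine Pf4 was higher in T3R1 than in T1R1 (0.48 ± 0.15, adjusted p = 0.0341).

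Of 14 measured genes that signal below the receptors, 0 passed in T3R1 against control (limma, 7 at an unadjusted p under 0.05). Without control replicate 1, 10 were higher (10.2% of all features), among them Prex1 at 0.71 and Vav1 at 1.49, which activate Rac in leukocytes. Among the controls, the summed level of this list was highest in control replicate 1 (75.3, the others 59.2 to 66.5). With all arrays, 2 of the 14 genes were higher in T3R1 than in T1R1 and in T2R1, Prex1 and Arrb2 in each case. Of 11 measured proteases and matrix partners of chemokines, Mmp14, a membrane-bound protease that cleaves chemokines, was higher in T3R1 against control with all arrays (1.72 ± 0.26, limma adjusted p = 0.0176), the only member of that list to pass there. The 6 fibroblast markers, all measured, summed to 385 to 452 in T3R1, 368 in control replicate 1 and 261 to 286 in the other controls, and the collagens Col1a1 (2.30 ± 0.42, adjusted p = 0.0272) and Col3a1 (2.52 ± 0.50, adjusted p = 0.0377) were higher in T3R1 against control. Their part in the ligand results was not tested.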

How the data were processed

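Whole-heart RNA of 16 mice was read on one-colour Agilent arrays. Per the file headers, Feature Extraction 10.7.3.1 made the intensity values, as background-corrected processed signals with flags for outlier, saturated and well-above-background spots. The authors' deposited value table holds log2 values whose sorted columns differ by at most 0.0097, as after quantile normalization, with ranks equal to those of the mean spot signal, and its making is not described in the labels. Processed signals were divided by the 75th percentile of each array and taken to log2, outlier spots were left out, and spots of a probe were averaged. Probes well above background on all 4 arrays of a group were kept (31386 of 55681), the brightest for each gene, which gave 22762 features. Of the values, 102 were missing. limma 3.58.1 in R 4.3.3 fitted the 4 groups together with 12 residual and 2.26 prior degrees of freedom, Benjamini-Hochberg adjustment over all features and a threshold of 0.05, and was tested on simulated data. Probe positions are the mm9 ones in the files. The naming rule gave values for every array to ligands that passed, to the 8 others with the largest difference from control and to those that share a receptor with them, and of a gene list at most 4 members with the smallest p. Other genes were named after their values were seen. Members and gene lists were chosen with earlier results of these data known. Replicate numbers did not pair the hearts. The alternatives were other background corrections and scalings, filters, probe summaries, weights, thresholds and leaving out each array. The values of 1 receptor on the lists are not reported here.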

Additional observations from a re-analysis of the deposited data

Results flagged for a closer look

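In 8 of 100 groups of 4 hearts tested (25 ligands in 4 groups), 1 heart lay far from the other 3, by a rule that picks out about 1 group in 20 by chance. Control replicate 1 was the high heart in 4 of them, Ccl8 at 2.97, Ccl5 at 1.82, Cxcl1 at -1.69 and Ccl17 at -2.36. T1R1 replicate 1 was the high heart for Cxcl13 at 1.99 and Ccl25 at 0.99, T1R1 replicate 2 was high for Ccl6 at 4.80, and T3R1 replicate 3 was low for Ccl19 at -0.22.

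Effects against control that differed between exposure groups are T3R1 minus T1R1 or T2R1, since the controls are shared, and each lies between slides. T3R1 differed from T1R1 for Cxcl10 (2.01), Ccl11 (-0.88) and Ccl1 (-0.65), and from T2R1 for Cxcl10 (2.46), Ccl11 (-0.87), Ccl1 (-0.83) and Cxcl12 (-0.60), all by limma with an adjusted p under 0.05.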

How the results depend on the processing

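The counts of ligands that passed were 0 in each exposed group against control and in T2R1 against T1R1, 3 in T3R1 against T1R1 and 4 in T3R1 against T2R1. Shares of all features that passed in the same fit are in brackets. In T1R1 against control the count was 4 with median scaling (47.2%), 4 with array weights (19.1%) and 1 at an adjusted p under 0.10 (16.1%), and 0 to 4 when 1 array was left out, with 4 without control replicate 1 (17.8%) and 2 without T1R1 replicate 1 (9.91%). In T2R1 against control it was 5 with median scaling (40.2%), 9 with array weights (38.7%), 1 with every probe on its own (17.7%), 1 with the mean of the probes (18.8%) and 1 with only the groups compared (16.6%), and 0 to 5 when 1 array was left out (5 without control replicate 1, 24.4%). In T3R1 against control it was 2 with normexp (1.33%), 2 with an intensity trend (2.13%), 1 on the authors' values (1.63%), 3 with probes above background on every array (3.01%), 13 with array weights (34.5%) and 4 at 0.10 (6.76%), and 0 to 11 when 1 array was left out (11 without control replicate 1, 29.4%, and 2 without T1R1 replicate 2, 1.12%). In T3R1 against T1R1 it was 6 with median scaling (38.6%), 5 with every probe (22.3%), 6 with only the groups compared (21%), 7 with array weights (28.2%), 1 at 0.01 (10.8%) and 5 at 0.10 (31.3%), and 1 to 7 when 1 array was left out (15.4% and 31.3%). In T3R1 against T2R1 it was 2 with median scaling (33.9%), 7 with only the groups compared (36.9%), 7 with array weights (41%) and 2 at 0.01 (14.4%), and 4 to 6 when 1 array was left out (18.5 to 36.6%).

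With control replicate 1 and T1R1 replicate 1 both left out, chosen after seeing the data, the counts were 9 (22%), 8 (25.9%) and 13 (31%) in T1R1, T2R1 and T3R1 against control, 5 in T3R1 against T1R1 (27.2%) and 8 against T2R1 (37.6%). With median scaling the median of all features against control was -0.44 (T1R1) and -0.37 (T2R1), where it had been -0.01 and 0.02, and there all 4 and 5 calls were lower, while all 6 and 2 calls of T3R1 against T1R1 and T2R1 were higher. For Cxcl12 in T3R1 against control the mean of the probes gave 0.03 in place of -0.22, of opposite sign, and neither passed; that setting adds the second probe. Of the other single-gene values, 511 kept their direction and side of the threshold, 41 passed only under the alternative and 30 no longer passed. The cause of these changes was not tested.

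Replicate numbers were shared between groups, but 5 of 16 arrays correlated best with their own number and same-number pairs had correlations from -0.32 to 0.39. With the replicate number as a block the counts were 0, 0, 0 and 0 in the first 4 comparisons (9.96%, 18%, 0.189% and 0% of all features). They were 2 in T3R1 against T1R1 (22.3%), where Cxcl10 was lost (limma adjusted p = 0.0632), and 4 against T2R1 (26.2%). Signals near background limit Ccl1, Ccl3, Ccl17 and Cxcl5.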
